A study of Rattus norvegicus with 16 samples.

Results

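Whole blood mRNA of saline-treated rats held 66 genes whose symbols mark them as factors of translation initiation (Eif1 to Eif6) or elongation (Eef1 and Eef2). The members were picked by symbol alone, from the 18031 genes listed in every deposited file, of 26405 listed in at least 1. All 66 were listed for every animal and no symbol occurred more than once. The 16 animals were male Sprague-Dawley rats of 85 to 90 days that received 4 injections of saline (1 ml/kg) at 2 h intervals, had no food or water during that period and were sacrificed 3 h after the last. Blood was drawn from the heart, alpha and beta globin mRNA was depleted, and polyadenylated RNA was sequenced with a strand-specific kit. All 16 libraries form 1 group, so no treated group was compared. The study ran its saline controls as cohorts sacrificed at separate dates, and the labels do not give the cohort of a single library. A run code, taken from the file names, marks sets of libraries here (A to F), and what it stands for is not stated. The sets match cohort sizes of the study only when B is joined with C, and D with E and F, a grouping that the labels do not give. Run, date and animals cannot be told apart, and p-values measure the spread between these libraries.

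Initiation factors bring the initiator tRNA and the small ribosomal subunit to the capped end of an mRNA, where eIF4E binds the cap, eIF4A unwinds and eIF3 holds the complex together. The initiator tRNA arrives with eIF2 and GTP, and eIF2B recharges eIF2 after each round. Under stress, kinases phosphorylate eIF2 and block that recharging. Rodents have 4 of them, which answer to low heme (Eif2ak1), double-stranded RNA (Eif2ak2), unfolded protein in the endoplasmic reticulum (Eif2ak3) and uncharged tRNA (Eif2ak4). Elongation factors eEF1 and eEF2 then deliver aminoacyl-tRNA and move the ribosome. In red cell precursors, heme supply and globin synthesis are matched through Eif2ak1. The 4 members Eif2c1 to Eif2c4 are Argonaute genes of small RNA silencing that carry an older symbol, and they are counted as their own group here.

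Libraries held 21466776 to 31189549 estimated counts, and the members together took 1.16% ± 0.217 (SD, n = 16), from 0.832% in control 8 to 1.70% in control 3. A normalized count is the rounded count divided by a DESeq2 size factor, and the log2 level of a marker list is the mean of the centred log2(normalized count + 1) of its genes. Of 24 erythroid genes 23 were used, and their level ran from -0.75 in control 11 to 1.12 in control 10. The lymphoid level (15 T and B cell genes) ran from -0.75 in control 8 to 0.49 in control 3, and the myeloid level (13 genes) from -1.21 in control 4 to 1.23 in control 8. Lymphoid and myeloid levels were inversely related (Pearson r = -0.82), so a gene that follows either of them cannot be assigned to it alone, while the erythroid level had r = -0.14 with the lymphoid and -0.17 with the myeloid level. Some libraries stood apart. The 8 liver markers summed to 452559 normalized counts in control 2 against a median of 44.4 over the libraries, control 8 had the second highest liver level, control 12 had the highest V(D)J recombination markers (sum 5770, median 33.4), and control 10 had the highest cardiac muscle markers (sum 413, median 14.2) and the lowest platelet level. In blood, a lower share of cells of a type and less RNA per cell cannot be told apart.

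The eIF2 kinase genes did not all follow the same blood cell markers. Eif2ak1 rose with the erythroid level, Eif2ak2 rose with the myeloid level, and Eif2ak3 and Eif2ak4 rose with the lymphoid level and fell with the myeloid level. The erythroid call of Eif2ak1 was lost with the run code in the fit (adjusted p = 0.35) and with scaling to total counts (adjusted p = 0.051). The 4 genes had coefficients of variation (SD over mean) of 37.7%, 51.0%, 24.0% and 30.9%, and none of them was below the median of genes at its own mean level. Slopes are log2 changes in a gene per log2 unit of the level, from edgeR quasi-likelihood fits over the 16 libraries.

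Eif2ak1 (ENSRNOG00000001050), the heme-regulated kinase, averaged 2279 ± 859 normalized counts (SD, n = 16). Controls 1 to 16 had 2293, 1339, 1899, 2674, 4053, 2604, 3176, 2913, 1478, 3892, 1581, 1864, 1871, 1679, 1479 and 1672. The 5 libraries of run code B (controls 4, 5, 7, 8 and 10) and control 6 held the highest values, and control 2 held the lowest. The slope on the erythroid level was 0.81 ± 0.09 (SE, adjusted p = 4.4e-05), that on the lymphoid level -0.21 ± 0.41 (adjusted p = 0.73) and that on the myeloid level -0.05 ± 0.15 (adjusted p = 0.84). The erythroid slope was 0.84 ± 0.21 with the run code in the fit, where no gene passed, and 0.42 ± 0.15 with scaling to total counts, and neither passed.

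Eif2ak2 (ENSRNOG00000048315), the kinase activated by double-stranded RNA and induced by interferon, averaged 916 ± 467. Controls 1 to 16 had 987, 487, 529, 472, 583, 488, 1629, 1402, 1902, 578, 868, 645, 1140, 1540, 730 and 669. Controls 7, 8, 9 and 14 were highest, at 1402 or more, and controls 2, 3, 4, 5, 6 and 10 were lowest, at 583 or less. The slope was 0.74 ± 0.10 on the myeloid level (adjusted p = 4.2e-05) and -1.77 ± 0.42 on the lymphoid level (adjusted p = 0.0058). With both levels in 1 fit the myeloid slope was 0.73 ± 0.19 (adjusted p = 0.045) and the lymphoid slope -0.05 ± 0.54 (adjusted p = 0.98).

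Eif2ak3 (ENSRNOG00000006069), the kinase of the endoplasmic reticulum, averaged 723 ± 173. Controls 1 to 16 had 713, 814, 832, 880, 785, 1062, 515, 316, 602, 721, 728, 876, 830, 585, 659 and 648. Control 8, which had the lowest lymphoid level, was also the lowest here, and control 6 was the highest. The slope was 1.2 ± 0.21 on the lymphoid level (adjusted p = 0.0012) and -0.34 ± 0.08 on the myeloid level (adjusted p = 0.0064). Eif2ak4 (ENSRNOG00000006027), the kinase that senses uncharged tRNA, averaged 289 ± 89.4, with its lowest value of 141 in control 8, a median of 281 and its highest value of 468 in control 6. Its slopes were 1.22 ± 0.30 (adjusted p = 0.0074) and -0.38 ± 0.10 (adjusted p = 0.013). With lymphoid and myeloid level in 1 fit no lymphoid slope passed, at 1.06 ± 0.36 for Eif2ak3 (adjusted p = 0.29) and 0.87 ± 0.52 for Eif2ak4 (adjusted p = 0.53). Without controls 2, 8 and 12 both lymphoid calls were lost, and without control 8 alone that of Eif2ak4 was lost.

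**Figure D1:**
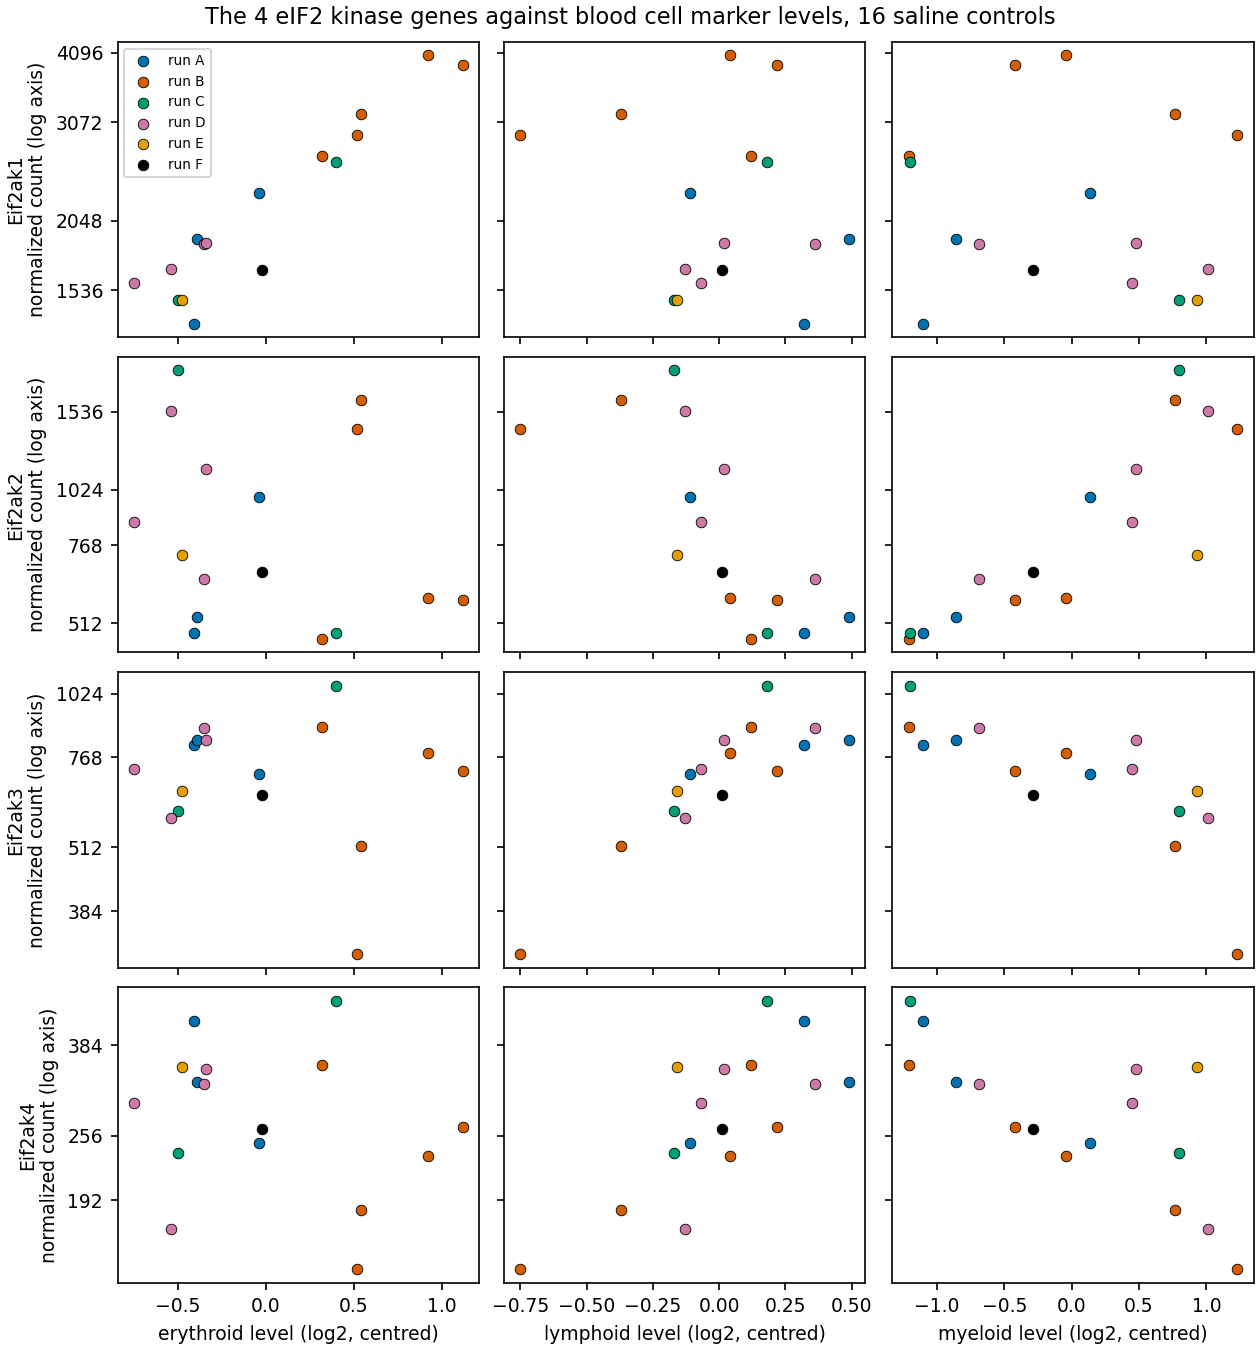
Normalized count (log axis) of each eIF2 kinase gene against the erythroid, lymphoid and myeloid marker level (log2, centred) of the same library, 1 point per saline control, coloured by run code. Eif2ak1 climbs along the erythroid level from 1339 to 4053, Eif2ak2 along the myeloid level from 472 to 1902, and Eif2ak3 and Eif2ak4 are lowest in control 8, the library lowest in lymphoid markers.

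Ratios of the kinases within a library do not depend on how that library is scaled, apart from the pseudocount of 1. They were compared with the 3 levels in 18 two-sided permutation tests (100000 permutations, Benjamini-Hochberg adjusted over the 18), chosen after the slopes were seen. Of these 10 passed by Pearson's r and 9 by Spearman's rho. The ratios reuse the genes, libraries and levels of those slopes, so the tests add no separate support to them. Ratios of other gene pairs were not tested. The log2 ratio of Eif2ak2 to Eif2ak3 ran from -1.12 to 2.14 and rose with the myeloid level (r = 0.90, adjusted permutation p = 9e-05, Spearman rho = 0.92, adjusted permutation p = 0.00018). Here r was 0.86 without the 2 libraries farthest from the median level and 0.96 after centring within run codes. The ratio of Eif2ak1 to Eif2ak2 rose with the erythroid level (r = 0.69, adjusted permutation p = 0.0065, rho = 0.63, adjusted permutation p = 0.02) and had r = 0.64 within run codes, but r = 0.48 with a permutation p of 0.085 without the 2 farthest libraries. The same ratio fell with the myeloid level (r = -0.71, adjusted permutation p = 0.006, rho = -0.76, adjusted permutation p = 0.0038), with r = -0.61 without the 2 farthest libraries and -0.87 within run codes. With the lymphoid level it had r = 0.47 (adjusted permutation p = 0.10, rho = 0.69, adjusted permutation p = 0.0099) and 0.80 within run codes. The ratio of Eif2ak1 to Eif2ak3 had r = 0.78 with the erythroid level (adjusted permutation p = 0.0023, rho = 0.71, adjusted permutation p = 0.0082) and 0.73 without the 2 farthest libraries, yet 0.21 within run codes, so this relation did not hold within runs. The ratio of Eif2ak3 to Eif2ak4, which ran from 0.92 to 1.79, had r = 0.26, -0.01 and 0.15 with the erythroid, lymphoid and myeloid level (adjusted permutation p = 0.42, 0.97 and 0.69, rho = 0.18, 0.02 and 0.05).

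Eif2ak1 was then set against single erythroid genes. It was positively correlated with the erythroid level and with all 23 erythroid genes. The adjusted p was under 0.05 in 24 of 24 two-sided permutation tests by Pearson's r and by Spearman's rho. The 23 genes make up the level and share its libraries, so these are not 24 separate results. The share of all genes that would pass against Eif2ak1 was not counted. In the edgeR fit on the erythroid level, which Eif2ak1 also followed, 13.4% of all genes had an unadjusted p under 0.05. For the level r was 0.95 (adjusted permutation p = 4e-05) and rho 0.88 (adjusted permutation p = 0.00014), and r was 0.90 without controls 5 and 10, the libraries farthest from the median. The smallest p that these permutations can give is 1e-05. Over the genes r had a median of 0.80, and the highest value, 0.95, was that of Car1, the erythrocyte carbonic anhydrase. Hemgn and Rhd had 0.91 and 0.93, Alas2, the erythroid enzyme of heme synthesis, had 0.78, and the erythroid transcription factors Gata1 and Klf1 had 0.83 and 0.84.

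Run code and erythroid level moved together, which bears on these values. The erythroid level lay between 0.32 and 1.12 in run B, between -0.41 and -0.04 in run A and between -0.75 and -0.34 in run D. After centring each gene within the run codes that hold at least 2 libraries (14 libraries), r with the erythroid level was 0.89 (exact permutation test within runs, 34560 arrangements, two-sided p = 0.00055). For the single genes the centred r had a median of 0.72 and ran from 0.29 (Nfe2) to 0.96 (Slc4a1, the band 3 anion exchanger). Against the same 23 genes the median r was -0.18 for Eif2ak2, -0.12 for Eif2ak3 and -0.20 for Eif2ak4, and the highest value of any of these was 0.25 (Eif2ak2 with Nfe2).

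**Figure D2:**
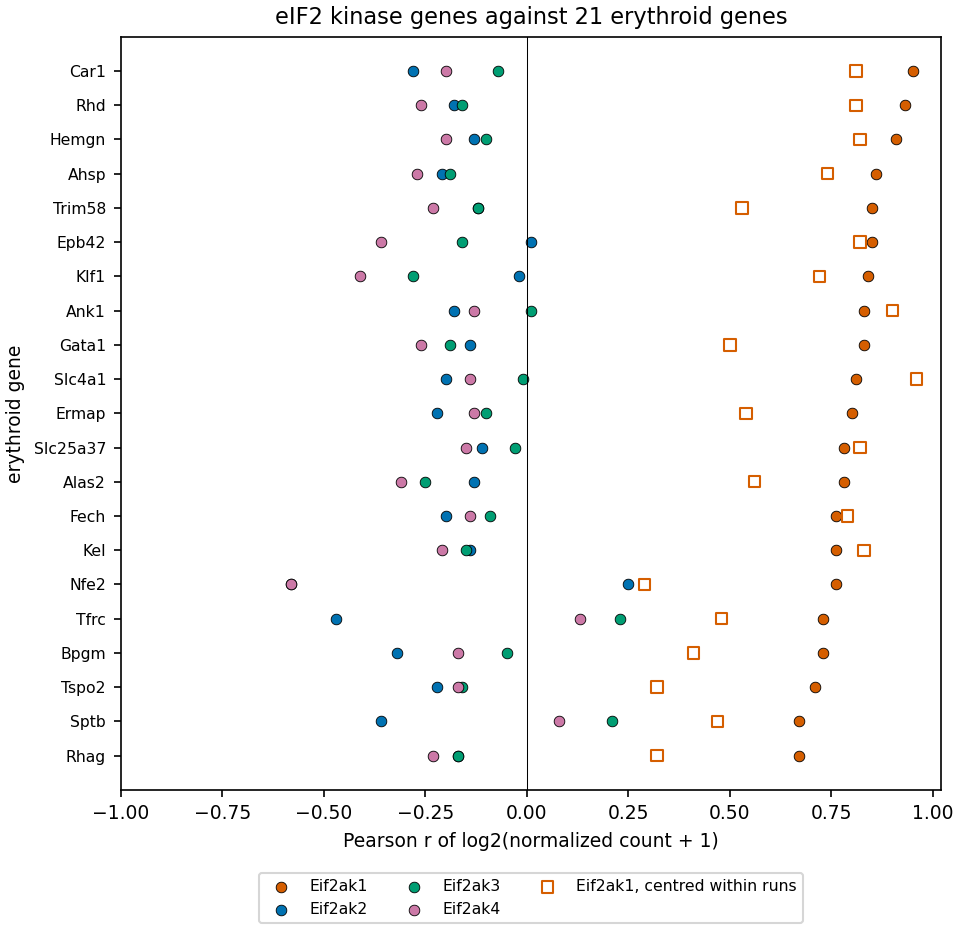
Pearson r (horizontal axis) between each eIF2 kinase gene and 21 of the erythroid genes (rows) over 16 libraries of log2(normalized count + 1), with open squares for Eif2ak1 after centring within run codes (14 libraries). Eif2ak1 lies between 0.67 and 0.95 and, centred, between 0.29 and 0.96, while the other kinases lie at 0.25 or below.

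The likeness of patterns was taken over 8671 other genes (mean 100 or more). The 5 with the pattern most like Eif2ak1 by Pearson r over the 16 libraries were ENSRNOG00000046406, which has no symbol in the files (0.98), Itsn1 (0.95), Car1 (0.95), Nedd4l (0.94) and Urod, an enzyme of heme synthesis (0.94). These values are a description.

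Short stretches of promoter are shown for Eif2ak1 and Eif2ak2, the kinases with the clearest slopes, beside a site of Alas2 as an erythroid gene. They come from RefSeq on build GRCr8, which is not the build of the counts, and 54 of the 66 members had an entry. Letters searched on both strands in the 250 bases before the start were TGATAA or AGATAA or TGATAG or AGATAG (the GATA motif), GATAA alone, and the core of an interferon response element (a pair of GAAA words with any 2 bases between them), the last 2 of these chosen after the sequences were seen. GATAA overlaps the first 2 words of the GATA motif. Sequences are on the strand of the gene, with the matched letters in capitals, in either orientation.
Eif2ak1, chr12:15858165-15858194, minus strand, GATAA reversed, match starting 9 bases before the start: ggaactagcagagcgaggttgTTATCcgcg
Eif2ak2, chr6:21940965-21940994, plus strand, GATA motif starting 177 bases before the start: gccttcccagcaTGATAGccagcaaaagag
Eif2ak2, chr6:21941124-21941153, plus strand, interferon core starting 16 bases before the start: gcggagtccgccggGAAAACGAAAcagaga
Alas2, chrX:22895302-22895331, plus strand, GATA motif starting 136 bases before the start: ccttgctgagaaAGATAAtgaggggggaat
The GATA motif occurred in 7 of 54 members (13.0%), in 12 of 15 erythroid marker genes with an entry and in 27.0% of all 33469 promoters, and none lay in this window of Eif2ak1. GATAA alone occurred in 23.5% of all promoters and the interferon core in 3.41%, 3 members among them. A match is a description of these letters and not a site of binding.

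Most members were steadier between animals than other genes at the same mean level. Each of the 62 members whose mean was 10 or more was set beside the 200 genes nearest in mean. The coefficient of variation was below the median of those genes for 43 of 62 members (69.4%), where 49.5% of all 12531 genes were below theirs. It was in the lowest 25% of these genes for 28 members (45.2%, all genes 24.8%) and in the highest 25% for 6 (9.68%, all genes 25.4%). Over the members the share of neighbours with a lower coefficient had a median of 29.2%. Without the Argonaute genes 42 of 58 were below the median. These are counts without a test, since members share libraries and complexes.

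Roles were assigned by symbol alone, so a gene's place in a group does not show that it has that function. The roles differed in how many of their genes were below the median of their level, which is a description without a test. All 13 eIF3 genes, 4 of 5 eIF2B genes, 4 of 5 genes of eIF2 and initiator tRNA delivery, and both Eif5a and Eif6 were below it, against 0 of 4 kinases and 1 of 4 genes that inhibit or carry eIF4E. In the lowest 25% of their level were 7 of 13 eIF3 genes, 4 of 5 eIF2B genes, 7 of 11 genes of cap binding and unwinding and 0 of 5 genes of eIF2 and tRNA delivery. Eif3d (ENSRNOG00000005804), the eIF3 subunit that can itself bind the cap, averaged 1051 ± 90.9, and its coefficient of 8.65% was below all 200 neighbours (their median 24.0%). Its values ran from 851 in control 8 through a median of 1074 to 1198 in control 2. Eif3h, with the highest mean of the complex and its widest spread, had 4556 ± 1122 and 24.6%. In eIF2B, Eif2b4 had 12.5%, Eif2b3 31.1% and Eif2b2, with the highest mean, 15.1%. In eIF2 and tRNA delivery, Eif2s1, the subunit that the kinases phosphorylate, had 17.4%, Eif2s2 23.3% and Eif2d, which can deliver tRNA without GTP, 29%.

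Among the genes of cap binding and unwinding, 8 of 11 were below the median of their level. Eif4g2 averaged 9857 ± 1236, with a coefficient of 12.5% that was below all but 1.00% of its neighbours, and the helicase gene Eif4a3, which also serves the exon junction complex, had 1050 ± 110 and 10.4%. The widest spread of the group was that of Eif4e2 (39.3%). In the group of start codon selection, Eif1ad, placed there by its symbol only, had 12.7% and Eif1, which guards the choice of start codon, 32.9%. Eif5a, the factor that carries hypusine, had 4507 ± 809 and 18%, and Eif6, which keeps ribosomal subunits apart, 808 ± 102 and 12.6%.

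The main elongation factors were also steady for their level. Eef1a1, which delivers aminoacyl-tRNA, averaged 104133 ± 21617 and ran from 72713 in control 1 to 156692 in control 3. Its coefficient of 20.8% was below 97.0% of its neighbours. Genes are few at the highest means, as for Eef1a1 and Eef2, so the neighbours there span a wide range of means and are only loosely matched in level. Eef2, the translocase, averaged 32771 ± 5625 (17.2%) and Eef1g, a subunit of the exchange factor of eEF1A, 12591 ± 1959 (15.6%), and both were below 98.5% of their neighbours. A pair of genes beside them varied widely. Eef1e1, which also belongs to the multi-tRNA synthetase complex, had 5342 ± 3027 (56.7%), and Eef2k, the kinase that inhibits eEF2, had 1243 ± 461 (37.1%). Of the inhibitors of eIF4E, Eif4ebp1 had the highest mean, 1265 ± 529, and the widest spread (41.9%), and the carrier Eif4enif1 had 606 ± 99.0 (16.3%). Among the Argonaute genes Eif2c2 had 5937 ± 2559 (43.1%) and Eif2c4 277 ± 73.8 (26.7%). The other 4 members, EEF1B2L, Eef1a2, Eif4e1b and Eif5a2, had means below 10, the highest of them 5.73 normalized counts for Eif5a2, and were left out of the tests by the filter on low counts. Reads of near-identical copies were divided by the authors' counting, so that EEF1B2L against Eef1b2 and Eif1a against Eif1ax are uncertain as single entries.

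**Figure D3:**
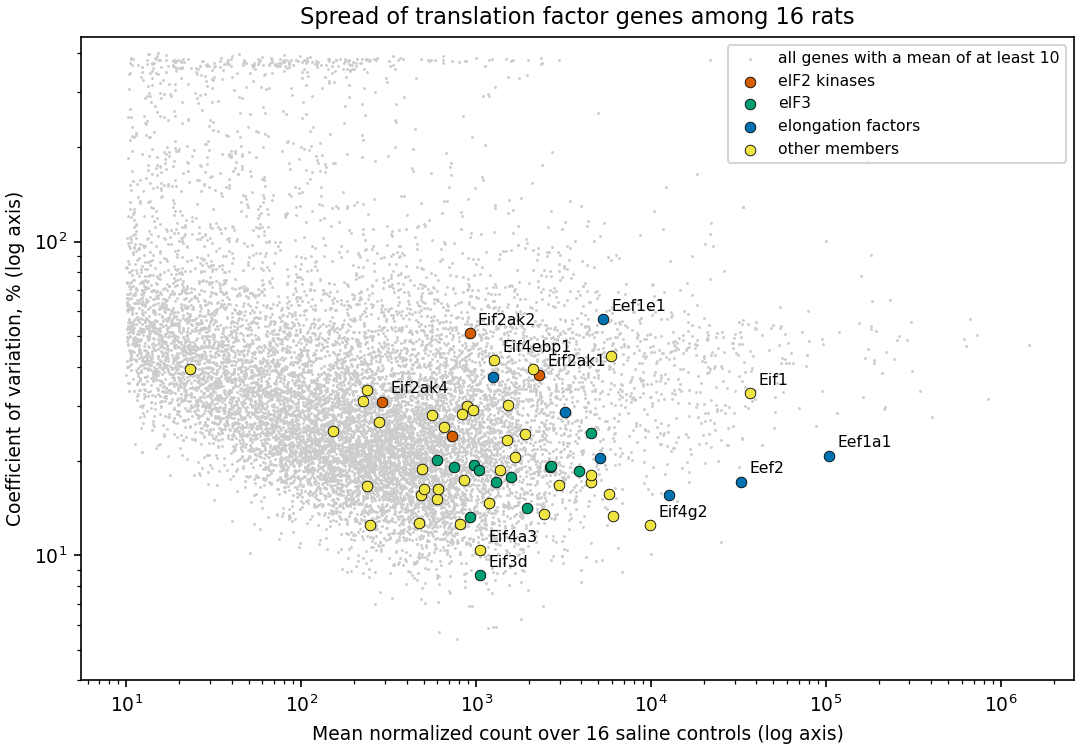
Coefficient of variation over 16 saline controls (log axis) against mean normalized count (log axis) for 12531 genes (grey) and 62 translation factor genes coloured by role. Most members lie in the lower part of the cloud at their level, down to 8.65% for Eif3d, while Eif2ak2 (51.0%) and Eef1e1 (56.7%) lie in its upper part.

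With the erythroid level, 8 of 62 members rose (12.9%, all genes 6.30%) and 1 fell (1.61%, all genes 0.118%). The median slope was 0.02 for members and -0.08 for all genes. Beside Eif2ak1, the risers were Eef1e1 (1.05 ± 0.12, adjusted p = 4.4e-05), Eif4e2 (0.78 ± 0.08, adjusted p = 2.7e-05), Eif2c2 (0.79 ± 0.16, adjusted p = 0.0045), Eif1 (0.58 ± 0.13, adjusted p = 0.0064), Eef2k (0.69 ± 0.16), Eif2d (0.51 ± 0.12) and the exchange factor subunit Eef1d (0.47 ± 0.12). Eif4e2, also called 4EHP, binds the cap without recruiting eIF4G and represses translation, and Eef2k likewise restrains it. The gene that fell was Eif4enif1 (-0.36 ± 0.09, adjusted p = 0.019). The main cap-binding gene Eif4e had a slope of -0.01 ± 0.11 (adjusted p = 0.98).

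With the run code in the erythroid fit no member and no other gene passed, and the slope was then 1.03 ± 0.33 for Eef1e1 (adjusted p = 0.65) and 0.60 ± 0.21 for Eif4e2 (adjusted p = 0.76). That of Eif1 was 0.21 ± 0.27 (adjusted p = 0.91). Without control 10, which held the highest value of Eif4e2, Eef1e1, Eif1 and Eif2c2, 4 members rose (all genes 3.55%) and none fell (all genes 0.0462%). Without control 5 also none fell (all genes 0.0386%). Scaling to total counts lowered the median slope of all genes by more than 0.1, to -0.46, and then 2 members rose (all genes 2.38%) and 17 fell (all genes 22.5%).

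With the lymphoid level, 10 of 62 members rose (16.1%, all genes 13.9%) and 4 fell (6.45%, all genes 12.6%), with a median slope of 0.13 for members and for all genes. These shares lie near or below those of all genes. After Eif2ak3 the lowest adjusted p among the risers belonged to Eif2b5, the catalytic subunit of eIF2B (0.71 ± 0.14, adjusted p = 0.0019), Eif2ak4, Eif3d (0.40 ± 0.11, adjusted p = 0.014) and Eif2b1 (0.57 ± 0.17, adjusted p = 0.024). Of the risers 4 were eIF3 genes, namely Eif3d, Eif3f, Eif3h and Eif3s6ip, the last an older symbol of Eif3l. The genes that fell were Eif4ebp1, the inhibitor of eIF4E that mTOR controls (-1.53 ± 0.35, adjusted p = 0.0050), Eif2ak2, the cap-binding paralog Eif4e3 (-0.91 ± 0.27, adjusted p = 0.019) and Eif4h, a helper of eIF4A (-0.48 ± 0.17, adjusted p = 0.041). Fewer members rose without control 3 (5, all genes 11.3%), control 8 (5, all genes 7.12%) or control 12 (6, all genes 12%). Without controls 2, 8 and 12 together none rose (all genes 1.28%) and 2 fell (all genes 5.42%). With the myeloid level added to the fit no member and no other gene passed. Scaling to total counts moved the median slope of all genes to 0.52, and then 16 members rose (all genes 14.0%) and none fell (all genes 3.70%). The call of Eif4h was lost in 14 of 25 alternatives.

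With the myeloid level, 6 of 62 members rose (9.68%, all genes 14.8%) and 5 fell (8.06%, all genes 10.6%), with median slopes of -0.07 for members and -0.05 for all genes. Beside Eif2ak2, the risers were Eif4ebp1 (0.65 ± 0.10, adjusted p = 0.00013), Eif4e3 (0.43 ± 0.07, adjusted p = 0.00020), Eif1a (0.42 ± 0.08, adjusted p = 0.00077), Eif4h (0.19 ± 0.05, adjusted p = 0.014) and Eif3c (0.23 ± 0.06, adjusted p = 0.017). Beside Eif2ak3 and Eif2ak4, the fallers were Eif3h (-0.30 ± 0.08, adjusted p = 0.014), Eif2b5 (-0.20 ± 0.06, adjusted p = 0.025) and the Argonaute gene Eif2c1 (-0.33 ± 0.11, adjusted p = 0.040). Of these 11 genes 8 also passed with the lymphoid level, all in the opposite direction. With the lymphoid level added to the fit 3 members rose (all genes 3.38%) and none fell (all genes 0.618%). The 3 were Eif2ak2, Eif4e3 (0.50 ± 0.13, adjusted p = 0.039) and Eif1a (0.57 ± 0.14, adjusted p = 0.030). In all, 26 members passed in at least 1 of the 3 fits, 13 of the 43 that were below the median of their level in spread and 13 of the 19 that were not. The same counts were not made over all genes, so these are not read as a result about the members.

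The cap-binding genes thus had 3 different patterns. Eif4e ran from 830 in control 1 through a median of 1218 to 1489 in control 7 and passed in no fit. Eif4e2 ran from 1421 in control 14 through 1751 to 4420 in control 10, and its 5 values in run B lay above all others. Eif4e3 ran from 330 in control 4 through 570 to 826 in control 7, with controls 2, 4, 6 and 10 at 375 or less. Levels are not compared between these genes, since transcript lengths were not used here.

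**Figure D4:**
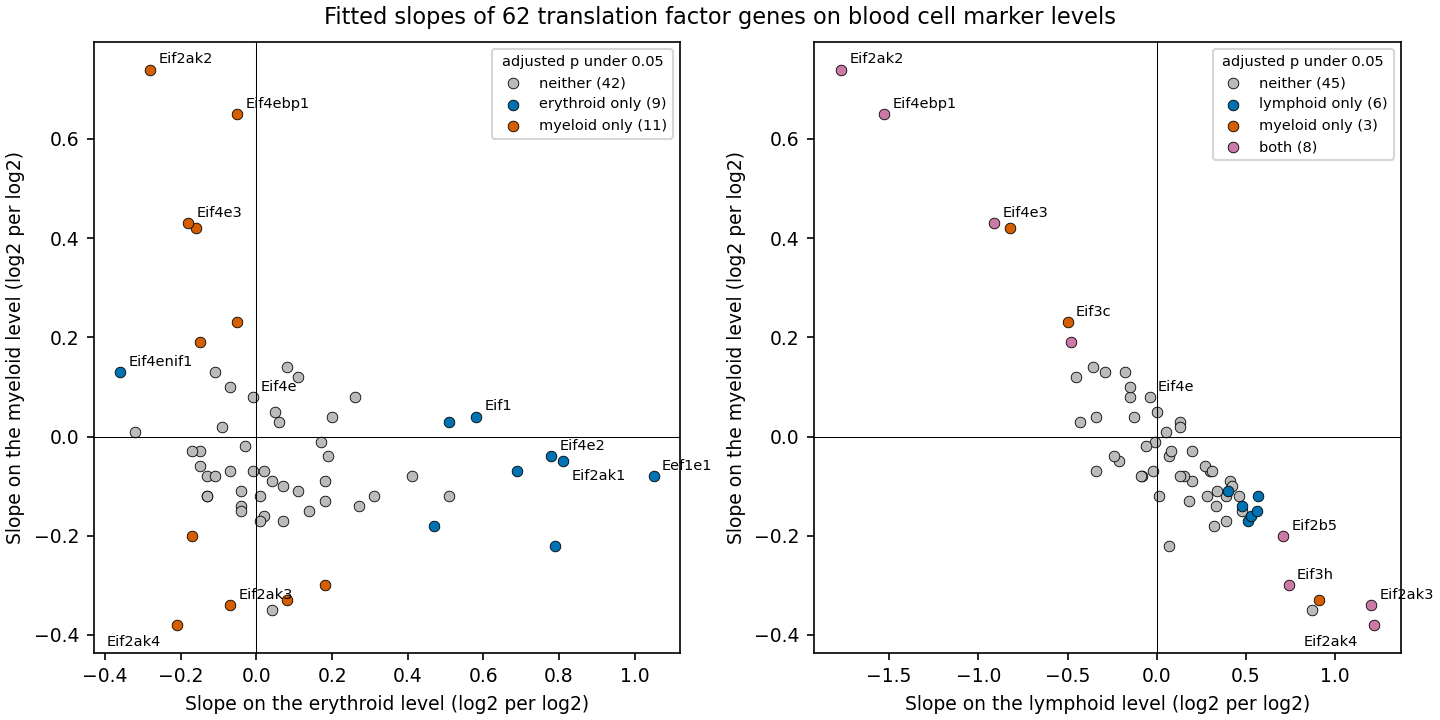
Fitted slopes (log2 per log2 unit) of 62 translation factor genes on the myeloid level against those on the erythroid level (left) and the lymphoid level (right), coloured by which slope had an adjusted p under 0.05. On the left 9 members passed with the erythroid and 11 with the myeloid level and none with both, and on the right 8 passed with both levels, in opposite directions.

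Run codes with at least 3 libraries were compared in 1 edgeR fit of 12 libraries. Between A and B no member passed in either direction (0% of all genes). Unadjusted p was under 0.05 for 8 of 62 members (12.9%, all genes 13.6%), and DESeq2 called 5 members higher in B (all genes 2.96%). Without control 4, edgeR called 4 higher in B (all genes 3.37%). The lowest unadjusted p was that of Eif4e2 (log2 fold change 0.95 ± 0.21 in B against A, adjusted p = 0.10). Between A and D no member passed either (0% of all genes). DESeq2 also called no member (all genes 0.0281% higher and 0.0169% lower in D). Unadjusted p was under 0.05 for 0 of 62 members (all genes 5.41%) and was lowest for Eif1a (0.59 ± 0.28, adjusted p = 0.92).

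Between B and D no member was higher in D (all genes 0.0386%) and 4 of 62 were lower (6.45%, all genes 2.26%). These were Eif4e2 (-1.0 ± 0.19, adjusted p = 0.028), Eif2ak1 (-0.92 ± 0.20, adjusted p = 0.038), Eef1e1 (-1.30 ± 0.30, adjusted p = 0.047) and Eif1 (-0.87 ± 0.20, adjusted p = 0.047). Eif4e2 had 2602, 3239, 2428, 3043 and 4420 normalized counts in controls 4, 5, 7, 8 and 10 of run B and 1553, 1633, 1609 and 1421 in controls 11 to 14 of run D. Eef1e1 averaged 8615 ± 3612 (n = 5) in B and 3476 ± 728 (n = 4) in D, where control 4 (4492) lay below control 12 (4556). Eif1 averaged 49231 ± 11495 in B and 26718 ± 1386 in D, and control 16 of run F had 50416. The erythroid level averaged 0.68 in B and -0.50 in D, and the run comparison and the erythroid fit share these libraries, so run and erythroid level cannot be told apart here. The liver markers summed to 24.8, 2276, 4492, 19876 and 60.7 normalized counts in controls 4, 5, 7, 8 and 10 of run B and to 15.7 to 31.8 in run D, and their part in the result was not tested. No member was called without control 5, 11, 12, 13 or 14, where 0.0155% to 0.204% of all genes were called lower. Without control 3, 7 or 10 it was 1 member (all genes 1.51%, 0.729% and 0.457%). Without control 1 or 2 it was 2 (all genes 2.04% and 1.51%), and without control 4 it was 6 (all genes 4.97%). The calls over all genes thus fell or rose in the same refits. With scaling to total counts, which moved the median of all genes to 0.53, no member was called (all genes 0.0463% lower).

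**Figure D5:**
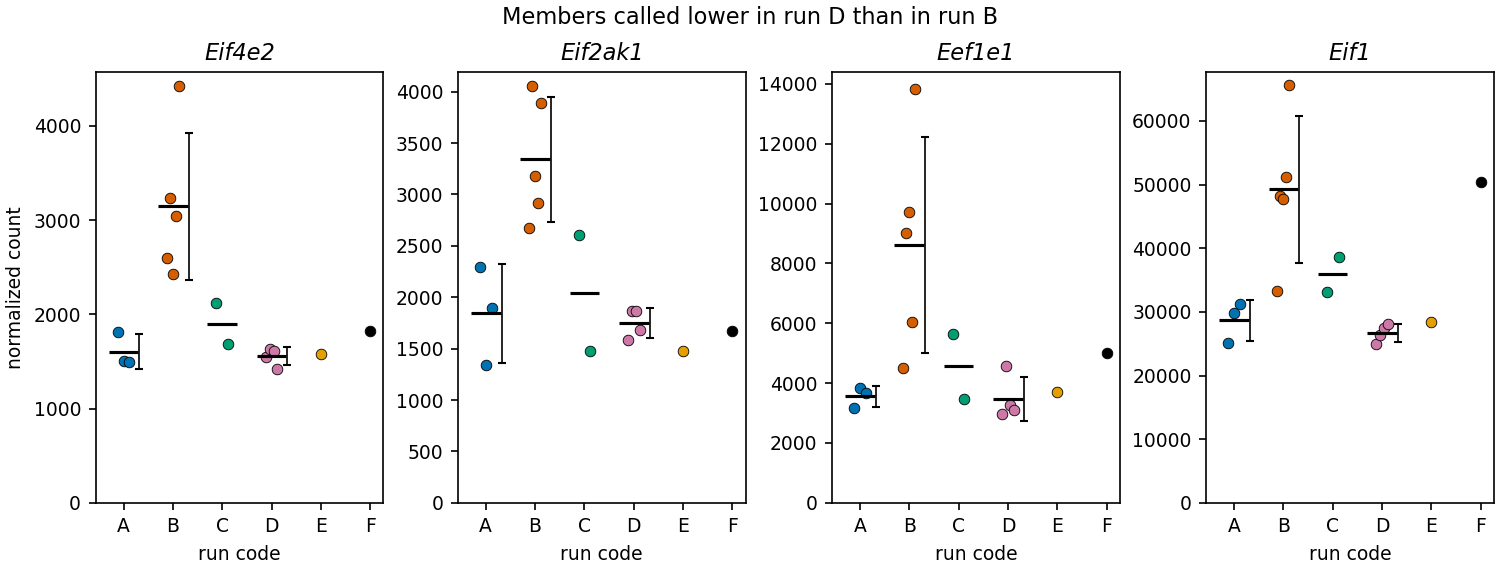
Normalized counts of the 4 members called lower in run D than in run B, 1 point per library by run code, with bars for the mean of runs with at least 2 libraries and the SD of runs with at least 3. Run B lies above run D for Eif4e2, Eif2ak1 and Eif1, and the runs overlap for Eef1e1. These genes were picked by the same comparison, so their separation adds nothing to it, and overlap is not given for the other genes called.

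Of 31 further genes of translation control, 29 were listed for every animal and tested. With the erythroid level 7 of 29 rose (all genes 6.30%) and 0 fell (all genes 0.118%). Among the risers were Paip2, an inhibitor of poly(A)-binding protein (0.72 ± 0.11, adjusted p = 0.00048), the ribosomal S6 kinase gene Rps6kb2 (0.70 ± 0.13, adjusted p = 0.0015) and Mknk1, a kinase of eIF4E (0.60 ± 0.12, adjusted p = 0.0023). With the lymphoid level 6 of 29 rose (all genes 13.9%) and 3 of 29 fell (all genes 12.6%). The risers were led by Pdcd4, an inhibitor of eIF4A (0.65 ± 0.15, adjusted p = 0.0058), Abce1, which recycles ribosomes (0.64 ± 0.16, adjusted p = 0.0092) and Rps6kb1 (0.51 ± 0.13, adjusted p = 0.0096). The fallers were led by the helicase gene Ddx3x (-0.91 ± 0.26, adjusted p = 0.015). With the myeloid level 5 of 29 rose (all genes 14.8%) and 4 of 29 fell (all genes 10.6%). These counts are small and were not tested against the shares of all genes, so they are not read as a result about this list. Atf4, the transcription factor translated when eIF2 is phosphorylated, averaged 3309 normalized counts and had slopes of -0.05 ± 0.15, -0.63 ± 0.20 and 0.23 ± 0.08 on the erythroid, lymphoid and myeloid level (adjusted p = 0.92, 0.027 and 0.037). Mknk1 (-0.84 ± 0.19) and Paip2 (-0.96 ± 0.22) were the 2 genes of this list called lower in run D than in run B (adjusted p = 0.047 each), and 0 were called in the other 2 run comparisons.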

How the data were processed

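The authors trimmed paired reads from an Illumina sequencer (CASAVA 1.8.2), mapped them to Ensembl rat transcripts of build rn5 with Bowtie 0.12.9 and used RSEM 1.2.0 to divide reads among transcripts. The values the authors deposited are raw estimated counts of genes, and 19.3% to 27.1% of those in each library had decimals, so they were rounded to whole numbers for the tests. The study's replacement of outlying values was not applied. Files list different genes, and a missing gene is not a 0, so genes listed in all 16 files were used.

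Run comparisons and fits on a marker level used edgeR 4.0.16 in R 4.3.3 (TMM scaling, filterByExpr, quasi-likelihood F-test, Benjamini-Hochberg adjustment, threshold 0.05). The standard error of a log2 value is the absolute value divided by the square root of F. Genes of a marker list were left out of the counts over all genes for its own level. DESeq2 1.42.0 gave size factors and an alternative. Log2 levels used a pseudocount of 1. Run codes come from the file names, the labels do not say what they mark, and they were used as sets of libraries, A for controls 1 to 3, B for 4, 5, 7, 8 and 10, C for 6 and 9, D for 11 to 14, E for 15 and F for 16. A, B with C, and D with E and F hold 3, 7 and 6 libraries, the sizes of the study's control cohorts of separate dates, so the codes may follow separate experiments on different animals. The code was tested on simulated counts of 10920 genes. For B against D it recovered 32% of genes changed by 1 log2 unit and 85% of those changed by 2. For the levels, genes were given slopes of 1 or 2 log2 per log2 unit of the level. Of these it recovered 75% and 95% for the erythroid, 12% and 70% for the lymphoid, and 91% and 100% for the myeloid level. The levels differ in range, so these shares are not for changes of equal size. Depth limits precision for the 4 members with a mean below 10. Permutations were made with numpy 2.4.6 in Python 3.11.15.

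Named were the 4 kinases, in each role the gene with the highest mean and those with the lowest and highest coefficient of variation (mean of at least 100), up to 5 members per direction and fit with the lowest adjusted p (the lowest unadjusted p where none passed), the 5 genes most like Eif2ak1, and up to 3 pathway genes per direction. Other members called in a fit, Atf4, and Eif4e beside its paralogs were named after their values were seen. The members, gene lists and markers were chosen with earlier results of these data known. Alternatives were another scaling, DESeq2, no filter on low counts, run code as a term, median levels, left-out libraries, other windows and other measures of spread. Some single genes are not reported here.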

Additional observations from a re-analysis of the deposited data

How the results depend on the processing

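No paired analysis was possible because the 16 libraries form 1 group. Leaving out every library in turn in the fits on marker levels, the stability counts and the erythroid relation, and fitting lymphoid and myeloid level together, were chosen after seeing the data. The 29 calls of named members kept direction and significance in 552 of 683 refits, lost significance in 129 and reversed in 2. The reversals came with both levels in 1 fit, at 0.23 for Eif4e3 on the lymphoid and 0.02 for Eif2b5 on the myeloid level. Eif2ak2 kept its myeloid call in all 25 alternatives run. Scaling to total counts gave 0 members lower in D than in B (all genes 0.0463%). It gave 2 higher (all genes 2.38%) and 17 lower (all genes 22.5%) with the erythroid level. With the lymphoid level it gave 16 (all genes 14%) and 0 (all genes 3.7%), and with the myeloid level 2 (all genes 6.6%) and 1 (all genes 2.06%). Run code as a term gave 0 and 0 for the erythroid level (all genes 0% each) and 3 lower for the myeloid (all genes 7.33%). DESeq2 called 5 members higher in B than in A (all genes 2.96%), and 8 lower with the lymphoid (all genes 11.1%) and 8 lower with the myeloid level (all genes 9.53%). Without a filter 2 were lower in D than in B (all genes 1.14%). With lymphoid and myeloid level together 0 and 0 were called for the lymphoid level (all genes 0% each). For the myeloid level it was 3 (all genes 3.38%) and 0 (all genes 0.618%). Without controls 2, 8 and 12, 0 rose (all genes 1.28%) and 2 fell (all genes 5.42%) with the lymphoid level, and 2 fell with the myeloid level (all genes 2.8%). Without the 2 farthest libraries 3 rose (all genes 1.23%) and 0 fell (all genes 0%) with the erythroid level. Then 2 rose with the lymphoid (all genes 5.58%) and 10 fell with the myeloid level (all genes 11.1%). Leaving out single libraries gave 0 to 4 calls for A against B (4 without control 4, all genes 3.37%) and 0 for A against D. It gave 0 higher and 0 to 6 lower for B against D (all genes 0.0155% to 4.97% lower). For the erythroid level 4 to 9 were higher (all genes 3.55% to 6.75%) and 0 to 1 lower (all genes 0.0386% to 0.248%). The lymphoid level gave 5 to 11 (all genes 7.12% to 14.1%) and 3 to 5 (all genes 10% to 12.8%). The myeloid level gave 5 to 6 (all genes 12.4% to 14.9%) and 4 to 6 (all genes 5.1% to 10.7%). It left 42 to 45 members below the median of their level in spread, 24 to 30 in the lowest and 3 to 7 in the highest 25% (3 without control 13), and r of Eif2ak1 with the erythroid level at 0.93 to 0.96. The counts of spread stayed within 1.5 times under TMM scaling, the SD of log2 levels, narrower and wider windows and centring within runs. The cause of these differences was not tested.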

Other observations

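Eif2ak2 is a textbook interferon-induced gene, and 18 such genes were set against it, a list drawn up after the slopes of Eif2ak2 were seen. With 2-sided permutation tests adjusted over 19 relations, 11 of 18 genes passed by Pearson's r and 9 by Spearman's rho. The share of all genes that would pass against Eif2ak2 was not counted. In the edgeR fit on the myeloid level, which Eif2ak2 also followed, 38% of all genes had an unadjusted p under 0.05. The counts are therefore not read as a result about interferon-induced genes. Ddx58 and Oas1a passed by r (0.58 and 0.56) and not by rho (adjusted permutation p = 0.059 each), and without the 2 farthest libraries their permutation p was 0.08 and 0.055. High values of r were those of Ifit2 (0.95, rho = 0.96) and Ifih1 (0.93, rho = 0.89), with adjusted permutation p of 9.5e-05 and 0.00013 for r, and 0.98 and 0.94 within run codes. With the myeloid level these 2 genes had r = 0.91 and 0.80, given without a test. The genes that passed by r lay between 0.40 (Ddx58) and 0.91 (Ifit2) with that level, and the mean level of the 18 genes had 0.61. For Ifit2 and Ifih1 the myeloid level and the interferon-induced genes cannot be told apart here, and for the others this was not tested. For the mean level of the 18 genes r was 0.80 (adjusted permutation p = 0.00092, rho = 0.78, adjusted permutation p = 0.0018) and 0.83 without the 2 farthest libraries.

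Other genes of that list had other values. Mx1 and Mx2 had r = -0.27 and -0.06 with Eif2ak2 (adjusted permutation p = 0.40 and 0.88, rho = -0.25 and -0.14). The antiviral gene Rsad2, at a mean of 36052 normalized counts, and Cmpk2 had r = -0.29 and -0.01 with Eif2ak2 (adjusted permutation p = 0.37 and 0.97, rho = -0.32 and 0.02) and, as a description with no test, 0.86 and 0.87 with Eif2ak1.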
